A study of Mus musculus with 5 samples.

Results

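Vessels that invade and surround the growth plate are wrapped by mural cells, a family that runs from pericytes on capillaries to the smooth muscle of arterioles. A gate for such cells, set on 5 marker genes, held 1654 of the 82516 growth plate cells that passed the quality filters. A member had at least 5 UMIs in all of Rgs5, Notch3, Abcc9, Kcnj8 and Higd1b, no UMI of Cdh5, Pecam1 or Ptprc, and under 200 Col2a1 UMIs per 10,000. A UMI (unique molecular identifier) marks 1 captured mRNA molecule, so that PCR copies are counted once. The measured levels of these 9 genes therefore chose the members, and the difference between members and other cells is described below without a test.

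The cells came from knee growth plates (proximal tibia and distal femur) of 5 littermate pups, 1 library each on the BD Rhapsody platform. Pups 1 and 2 were labelled wild type (WT), and pups 3, 4 and 5 were labelled mutant, a conditional knock-in of the activating Trpv4 p.R594H change induced by Col2a1-Cre. Col2a1 drives this Cre in chondrocytes, so recombination in vessel wall cells was not designed, and whether the WT littermates carried the Cre or the unrecombined allele is not given in the sources used here. The age was postnatal day 5 in the sample labels and day 3 in the design text, and the labels named every cell a chondrocyte. After filtering, 116544529 to 173680933 UMIs remained per pup. Members held a median of 8540 and 9114 UMIs in the WT pups and 7088, 5545.5 and 6084 in the mutant pups, so that depth was lower in every mutant pup. Their median mitochondrial percent was also lower in every mutant pup, at 5.42, 5.79 and 4.95 against 6.10 and 5.97 in WT. Its part in the differences below was not tested. Xist was detected in 86.7% and 82.0% of the members of pups 3 and 4 and in none of pups 1, 2 and 5, and Ddx3y showed the reverse pattern, so that sex and genotype overlapped in part. Between 3 and 7 cell barcodes were shared by any pair of libraries, including the barcode of 1 member.

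Pericytes share a basement membrane with endothelial cells, receive PDGF-B through the receptor encoded by Pdgfrb, and depend on Notch3 for their upkeep. Rgs5, a brake on G protein signalling, marks pericytes in many tissues, and Kcnj8 and Abcc9 encode the pore and the regulatory subunit of 1 potassium channel that relaxes the vessel wall. Smooth muscle adds a contractile apparatus of Acta2, Tagln, Cnn1 and the myosin heavy chain Myh11. The 5 rule genes lie on mouse build GRCm38 at chr1:169655501-169695813 (Rgs5, plus strand), chr17:32120820-32166852 (Notch3, minus), chr6:142587862-142702315 (Abcc9, minus), chr6:142564837-142571614 (Kcnj8, minus) and chr11:102835849-102838040 (Higd1b, plus), and all are protein coding.

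The name pericyte held for only a portion of the gate. Of the 1654 members, 730 had UMIs of 1 rule gene alone, 275 of 2, 311 of 3, 259 of 4 and 79 of all 5. Rgs5 contributed the most UMIs in 1312 members, Notch3 in 267 and Abcc9 in 74. After these values were seen, the gate was divided by its own genes into 827 cells with Rgs5 and at least 1 other rule gene, called double-marker cells here, 633 cells with Rgs5 alone, and 194 cells without Rgs5. The division is a description, since its genes are those of the gate.

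The double-marker cells carried some mural markers that the rule had not used, whereas Cspg4 and Cox4i2 did not set them apart from cells outside the gate. Mcam, an adhesion molecule of mural and endothelial cells, had a UMI in 79.6% of them, Pdgfrb in 64.7% and Vtn in 18.4%. In the cells with Rgs5 alone these shares were 3.16%, 8.53% and 0%, although the median depth was similar at 7621 against 7554 UMIs. For Vtn, 0 of 633 cells allows a share of up to 0.474%, by counting error alone. Leukocytes, taken as cells with at least 2 Ptprc UMIs, gave a background at a median of 7642.5 UMIs, with 1.88% for Mcam, 2.96% for Pdgfrb and 0.0722% for Vtn. They had no limit on Col2a1, so free RNA and capture together with a chondrocyte cannot be told apart in this background. Cspg4, which encodes the NG2 proteoglycan, had a UMI in 71.2% of double-marker cells, 77.9% of cells with Rgs5 alone and 72.0% of all other cells. Ndufa4l2 had a UMI in 71.0%, 49.1% and 48.2%, and in 13.1% of leukocytes. For Cox4i2 these shares were 28.9%, 3.00% and 25.9%, and 6.13% in leukocytes.

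Cells with Rgs5 alone carried a different set of genes. Prg4, which encodes the joint lubricant lubricin, was detected in 85.5% of them, Pdgfra in 88.3%, Htra4 in 76.0% and Clic5 in 69.4%, against 25.9%, 17.9%, 6.17% and 2.42% of double-marker cells. Leukocytes had 31.0%, 10.2%, 1.73% and 1.23%, and all other cells 54.3%, 38.4%, 1.20% and 1.02%, so that Prg4 in double-marker cells was at the background and Prg4 and Pdgfra were common outside the gate. Their leading genes against the other members, in all 5 pups, were Col22a1, Htra4, Rgcc, Clic5, Cd55, Hbegf, Anxa8, Ackr2, Dlx3 and Tspan15. Levels below are CPM, the UMIs of a gene scaled to the summed UMIs of the same cells of 1 pup. Rgs5 itself stood between 2313 and 3019 CPM in these cells, against 5535 to 15567 in double-marker cells and 5.63 to 29.9 in all cells outside the gate. High Rgs5 without the other rule genes follows from how these cells were chosen. Outside the rule, Des, an intermediate filament gene of muscle and mural cells, had a UMI in 10.7% of them, against 22.2% of double-marker cells, 2.77% of all other cells and 0.505% of leukocytes.

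The 194 cells without Rgs5 were led by Mmp9, Mmp13, Spp1, Sfrp4, Aldh1a2 and Igf1, with Notch3 in 85.1% and Abcc9 in 58.2%. Igf1 stood above the other portions in all 5 pups, Mmp9 in 4 and the rest in 3, and Mmp9 had a UMI in only 5.15% of these cells. At the edge of the gate, the 132 members with exactly 5 marker UMIs had Mcam in 12.9% and Pdgfra in 77.3%, and the 182 cells with 4 marker UMIs that met the other limits had Mcam in 12.1% and Pdgfra in 67.0%. Among the 890 members with 20 or more marker UMIs, 61.1% had Mcam and 36.4% had Pdgfra. Of 1912 cells with at least 5 marker UMIs, 124 had been removed for a Cdh5, Pecam1 or Ptprc UMI and a further 134 for their Col2a1, and no doublet caller was run. Of 10 endothelial genes outside the rule, Kdr, Tie1, Cldn5 and Egfl7 stood at 0 to 1.75 CPM in the gate and Emcn and Plvap at 11.2 or less. Esam, a junction gene, stood at 107 to 225, and Flt1, Ramp2 and Eng at 17.2 to 52.4.

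**Figure D1:**
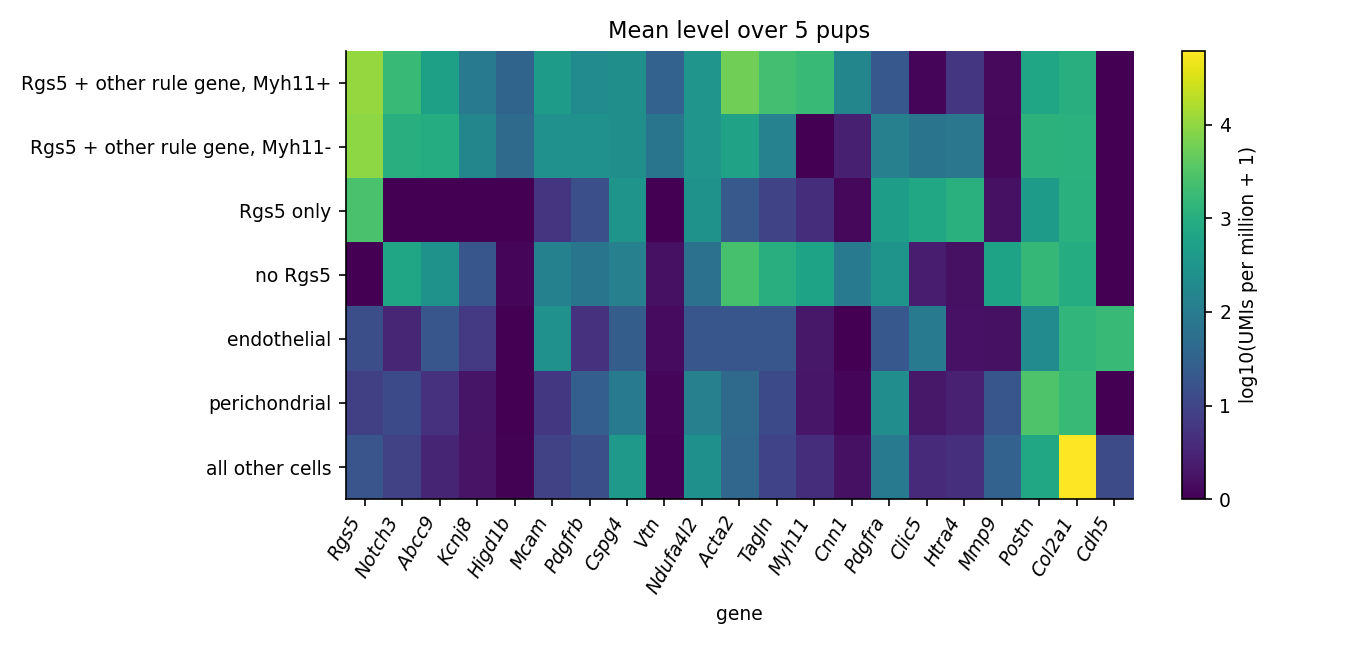
Mean level over the 5 pups, as log10 of CPM plus 1 (colour), of 21 genes (horizontal axis) in the 4 portions of the gate and in 3 other classes of cells (vertical axis). Mcam, Pdgfrb and Vtn were high where Rgs5 came with another rule gene, and Pdgfra, Clic5 and Htra4 where Rgs5 stood alone.

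Among genes outside the rule, the gate differed most from all other cells in Myh11, with 835 against 3.52 CPM over the pooled cells, a ratio of 237. Pooling gives most weight to WT pup 2 and mutant pup 3, which held the most members. In mutant pups 4 and 5 Htra4 stood above Myh11 in the gate. Tagln (transgelin, an actin-binding protein of smooth muscle) had a ratio of 133, Actg2 118 and Acta2 74.1. The subunits of the nitric oxide receptor guanylate cyclase, Gucy1a1 and Gucy1b1, had ratios of 97.1 and 80.5, and Adra2a, an adrenergic receptor, 91.4. Htra4, Clic5 and Tspan15, which led the cells with Rgs5 alone, were also among these 15 genes. This contrast follows from the gate and was not tested.

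The first question was whether mutant growth plates held fewer gate cells. The gate made up 1.21% and 3.89% of cells in the WT pups and 2.80%, 1.08% and 0.702% in the mutant pups. The groups overlapped, and the means of 2.55% ± 1.90 (SD, n = 2) and 1.53% ± 1.12 (SD, n = 3) did not differ beyond the spread between pups (exact permutation test over 10 groupings, 2-sided, p = 0.5; smallest possible p = 0.1). WT pup 2 decided the direction, since without it the difference of -1.02 percentage points became 0.317. The rule counts UMIs, so fewer cells can meet it at the lower depth of the mutant pups. For a thinned count, cells under 3000 UMIs were left out, 0 and 21 in the WT pups and 691, 1162 and 429 in the mutant pups. With the rest thinned to 3000 UMIs and a marker sum of at least 2, the means were 2.85% and 2.03%. The difference was then -0.83 percentage points (exact permutation test, p = 0.6). Endothelial cells, which line the same vessels, made up 0.595% and 0.749% of WT cells and 0.862%, 0.430% and 0.239% of mutant cells.

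The makeup of the gate showed less spread than its size. Double-marker cells with a Myh11 UMI formed 39.3% and 38.4% of the gate in the WT pups and 29.5%, 28.4% and 24.7% in the mutant pups. Cells with Rgs5 alone formed 36.1% and 32.4% in WT and 42.8%, 42.8% and 47.4% in mutant pups. This portion is defined by the absence of UMIs, which depends on depth, and depth was lower in every mutant pup, so the shares are given as a description. Double-marker cells without Myh11 formed 14.2% and 14.1% in WT and 17.2%, 24.2% and 14.4% in mutant pups. The cells without Rgs5 ranged from 4.64% to 15.0% with overlapping groups.

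**Figure D2:**
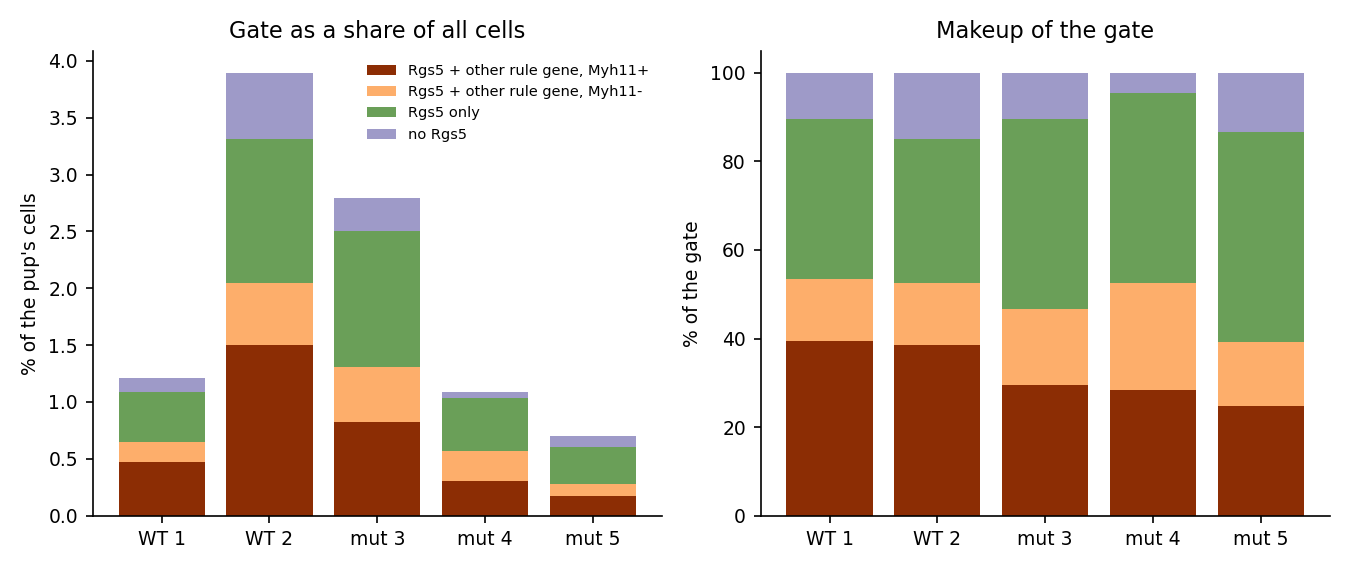
Share of each pup's cells that fell in the gate (left panel, %) and share of the gate in each of 4 portions (right panel, %), for WT pups 1 and 2 and mutant pups 3, 4 and 5. WT pup 2 had the highest share at 3.89%, and the portion with Myh11 was 38.4% or more in both WT pups and 29.5% or less in the mutant pups.

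The contractile and smooth muscle list had more genes below both WT pups in all mutant pups than any other list compared. All lists were chosen with earlier results of these data known, so this rank is a description. Members of at least 3000 UMIs, 183 and 645 in WT and 528, 182 and 94 in mutant pups, were thinned to that depth. Of these, a Myh11 UMI was found in 40.4% and 40.9% in WT and in 31.1%, 26.9% and 18.1% in mutant pups. Every mutant pup was below both WT pups, by 15.3 percentage points on average (exact permutation p = 0.1, the smallest possible). Without thinning the shares were 45.9% and 43.4% against 33.8%, 28.4% and 24.7%, and the share in leukocytes was 0.433%. The median member carried 8.76 and 2.90 UMIs of Acta2, Tagln, Myh11, Cnn1 and Myl9 together per 10,000 UMIs in WT pups and 1.27, 1.34 and 0 in mutant pups (difference of means -4.96, exact permutation p = 0.1). This difference moved with the WT pups, to -2.03 without WT pup 1 and to -7.89 without WT pup 2. Members with no UMI of these genes made up 36.1% and 37.1% of the WT gates and 46.7%, 47.9% and 51.5% of the mutant gates. The medians thus lay near the floor, where they depend on depth, which was lower in every mutant pup. Within double-marker cells alone, which leaves out the cells with Rgs5 alone, these medians were 63.0 and 119 in WT against 29.8, 18.4 and 13.3 in mutant pups. There, 39.8% and 52.8% of WT cells and 32.4%, 23.5% and 23.7% of mutant cells reached 100 contractile UMIs per 10,000. In these sums, fewer cells of a type and less RNA per cell cannot be told apart.

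**Figure D3:**
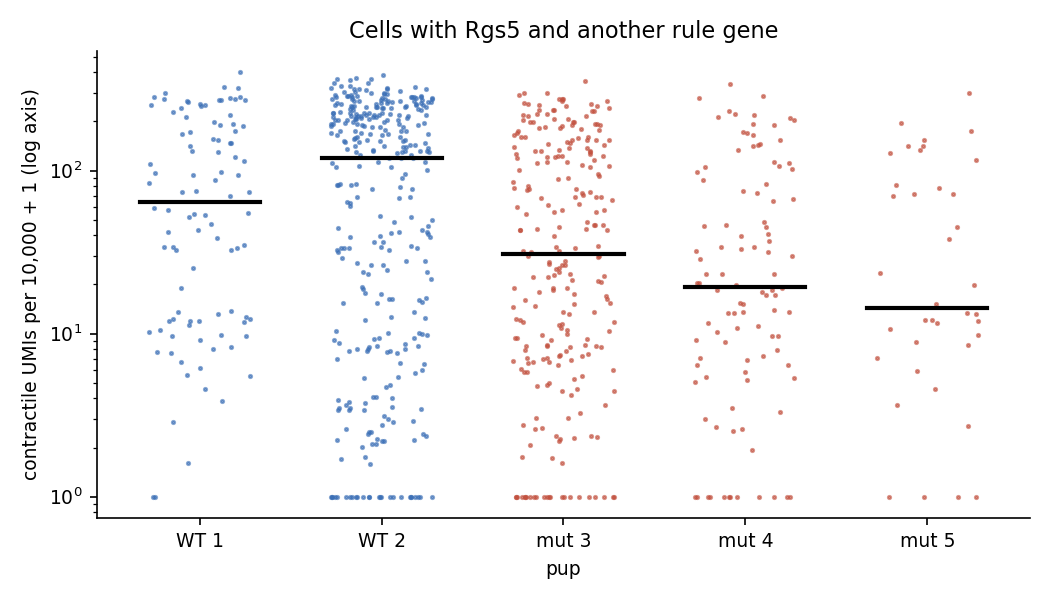
Summed UMIs of Acta2, Tagln, Myh11, Cnn1 and Myl9 per 10,000 UMIs plus 1 (vertical axis, log scale) in each double-marker cell, by pup (horizontal axis), with the median as a black line. The medians were 63.0 and 119 in the WT pups and 29.8, 18.4 and 13.3 in the mutant pups, and cells at high levels were present in all 5 pups.

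Gene by gene, UMIs were summed per pup over the gate and fitted with edgeR across 10557 genes. Only Map3k7cl and Col8a1 passed an adjusted p of 0.05, and both fell in the mutant. The lower calls were 0.0189% of genes tested. In edgeR no gene was called higher, with 344 higher and 473 lower at an unadjusted p under 0.05. Map3k7cl, a gene on the contractile list (chr16:87553330-87595336, plus strand), stood at 88.0 and 102 CPM in WT and at 43.6, 32.7 and 33.5 in mutant pups. Its log2 fold change was -1.32 ± 0.17 (SE; edgeR adjusted p = 0.0339). Col8a1, a short-chain collagen of vessel walls and perichondrium (chr16:57624258-57754737, minus strand), stood at 274 and 290 in WT and at 146, 144 and 147 in mutant pups, with a log2 fold change of -0.96 ± 0.12 (edgeR adjusted p = 0.0339). Both groups were tight and well apart for each gene. The number called moved with single libraries. It was 11 when WT pup 1 was left out, and 19 when mutant pup 3 or mutant pup 5 was. Leaving out a WT pup leaves 1 WT sample, which is then assumed to vary like the mutant pups. Leaving out WT pup 2 gave 2 other genes, Csrp1 and Has1, both higher, and leaving out mutant pup 4 gave 0 in edgeR (455 at an unadjusted p under 0.05). Only mutant pups 3 and 4 were rich in Xist, so that with Xist as a covariate, as without those pups, the genotype effect is that of mutant pup 5 alone (97 members, with the lowest contractile level) against the WT pups, and mutant pup 5 is assumed to vary like the others. With the covariate 43 genes were called, 21 higher and 22 lower, and Map3k7cl was no longer among them (log2 -1.55 ± 0.29, edgeR adjusted p = 0.057). In that fit the median of the contractile list was -1.38. This describes mutant pup 5, which shared the Xist and Ddx3y pattern of both WT pups. By these genes sex was held constant there, but the genotype effect rests on 1 mutant pup and not on the Xist-rich pups 3 and 4. Leaving those pups out gave 64, of which 24 were higher and 40 lower.

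Of the 21 genes of the contractile and smooth muscle list, 20 were tested. Of these, 1 was called, 19 had lower estimates, and the list's median log2 fold change was -0.90 against a median of 0.00 over all genes tested. In 17 of the 20 both WT pups lay above all 3 mutant pups, against 13.3% of all genes tested. These genes are not independent, since many were carried by the same cells. Myh11, Actg2, Mylk, Tagln, Acta2 and Myl9 were among the leading genes of double-marker cells with Myh11. Those cells were chosen by a Myh11 UMI, so the lead of Myh11 is fixed and that of genes found with it is a description. Acta2, smooth muscle actin, stood at 3236 and 3573 CPM in WT and at 2167, 1571 and 1024 in mutant pups (log2 -1.10 ± 0.30, edgeR adjusted p = 0.53). Tagln stood at 1304 and 1506 against 804, 629 and 429 (log2 -1.17 ± 0.24, edgeR adjusted p = 0.25). Both genes passed the threshold in DESeq2, which called 11 genes, 10 of them lower. Myl9, the regulatory light chain that smooth muscle myosin needs, stood at 1007 and 992 against 615, 385 and 280. Myh11 stood at 875 and 1066 against 630, 532 and 290, and Cnn1, calponin, at 101 and 117 against 56.4, 43.8 and 14.3.

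Not all of the list followed. Srf, the factor that binds CArG boxes of contractile genes, stood at 16.3 and 18.5 CPM in WT and at 15.4, 10.3 and 20.7 in mutant pups, with overlapping groups. Its coactivator gene Myocd was among the genes without overlap, at 31.5 and 36.6 against 24.7, 23.2 and 15.9. Csrp1 was 54.2 in WT pup 1 against 322 to 688 in the other 4 pups. That library held little Csrp1 in every class of cells (6.73 CPM in all cells outside the gate, against 60.7 to 86.8 in the other pups), and its log2 fold change of 0.17 has an SE of 1.17.

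**Figure D4:**
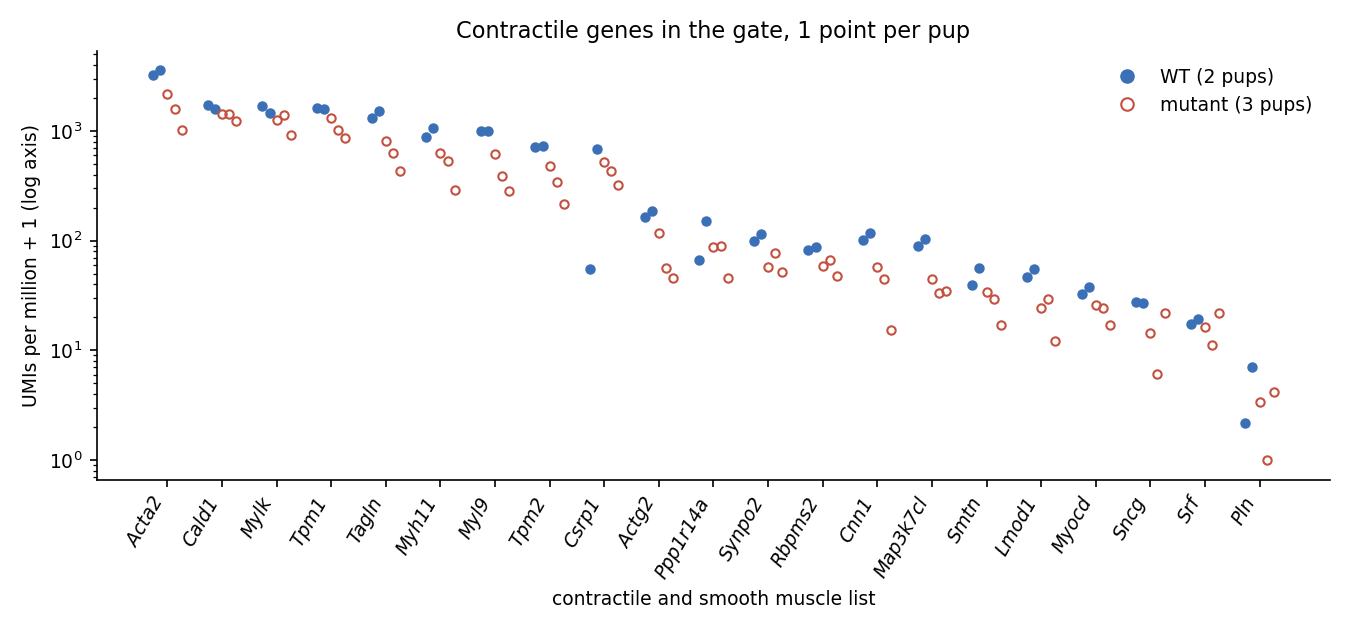
Level of each of the 21 genes of the contractile and smooth muscle list in the gate, as CPM plus 1 (vertical axis, log scale), with 1 point per pup, filled for WT and open for mutant. Mutant points lay below both WT points for most genes, with Csrp1 of WT pup 1, Ppp1r14a, Srf and Pln as exceptions.

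In double-marker cells alone, no gene passed the threshold among 8844 tested (536 at an unadjusted p under 0.05), 18 of 20 contractile genes had lower estimates and the list's median was -0.71. Mylk, myosin light chain kinase, had a log2 fold change of -0.38 ± 0.17 in the gate and of -0.07 ± 0.15 in double-marker cells, where it ranged from 2374 to 2756 CPM in all 5 pups. Nothing is read from genotype fits within cells chosen by Myh11, since Myh11 is itself a gene of the list and its detection differed between the groups. Map3k7cl had -1.04 and Col8a1 -2.16 in double-marker cells, and Col8a1 there stood at 334 and 373 in WT against 88.9, 99.7 and 16.9 in mutant pups. In cells with Rgs5 alone the estimate for Col8a1 went the other way, higher in the mutant.

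The promoters of the contractile list are shown for the 2 genes with a CArG box, the site bound by Srf, among the 16 list genes found in the RefSeq promoter table for GRCm38.p6. A box here is an exact match of 10 bases: CC, then only A or T, then GG. It was sought on both strands in the 250 bases before each start, and 1.47% of all 32851 promoters held 1. Boxes that differ from this pattern, or that lie elsewhere, were not sought, so the other list genes may hold such sites. Each sequence runs from 250 to 51 bases before the start, at chr2:156775214-156775413 on the plus strand for Myl9 and chr17:46556213-46556412 on the minus strand for Srf, with the boxes in capitals.
Myl9: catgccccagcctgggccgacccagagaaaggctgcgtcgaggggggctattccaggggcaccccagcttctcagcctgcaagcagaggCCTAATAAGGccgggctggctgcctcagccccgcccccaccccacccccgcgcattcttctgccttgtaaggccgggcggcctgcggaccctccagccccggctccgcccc
Srf: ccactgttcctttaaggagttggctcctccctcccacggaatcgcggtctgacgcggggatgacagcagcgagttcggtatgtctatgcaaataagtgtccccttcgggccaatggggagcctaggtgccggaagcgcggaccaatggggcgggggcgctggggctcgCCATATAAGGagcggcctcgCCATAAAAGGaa
The box of Myl9 begins 161 bases before its start, and the boxes of Srf begin 82 and 62 bases before. Myl9 was below both WT pups in every mutant pup, and Srf was not.

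Notch signalling passes from a Jag1 or Dll ligand on 1 cell to a Notch receptor on the next, whose cleaved tail joins Rbpj at target genes. The receptor gene Notch3, a gene of the rule, stood at 949 and 645 CPM in WT and at 722, 884 and 808 in mutant pups, with overlapping groups. Of 13 Notch pathway genes tested none was called by edgeR, and 5 had an unadjusted p under 0.05, all with lower estimates. The target gene Hey2, a repressor of the arterial wall, stood at 28.6 and 30.4 in WT and at 10.7, 5.16 and 6.37 in mutant pups (log2 -1.77 ± 0.27, edgeR adjusted p = 0.076). With 1163138 and 627721 UMIs in the gates of mutant pups 4 and 5, the Hey2 levels there rest on few UMIs. Heyl, a related target, stood at 78.1 and 70.7 against 51.5, 39.5 and 27.1. Nrarp, a feedback inhibitor induced by Notch, stood at 105 and 102 against 63.6, 59.3 and 68.5, and the ligand Jag1 at 128 and 148 against 87.8, 79.1 and 97.2. The groups did not overlap for these 4 genes. In 6 of the 13 genes all mutant pups were below both WT pups, against 13.3% of all genes tested. In 2 of the 13, among them Dlk1, all mutant pups were above both WT pups, against 12.5% of all genes tested. Hes1 and Rbpj overlapped, and the median of the list was -0.04, between -0.13 and -0.01 with each pup left out. In double-marker cells alone Hey2 kept a lower estimate (log2 -1.55) at 42.7 and 51.9 against 19.7, 10.1 and 12.7, whereas Nrarp overlapped at 148 and 177 against 103, 117 and 182.

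The promoter of Hey2 is shown because its gene had the lowest p of the list and because it holds the core motif of Rbpj, GTGGGAA or its reverse complement TTCCCAC. This motif was found in 5.42% of all 32851 promoters and in 2 of the 14 list genes in the table, Hey2 and Lfng. The sequence spans 250 to 51 bases before the start, at chr10:30842834-30843033 on the minus strand of GRCm38.p6, with the motif in capitals.
Hey2: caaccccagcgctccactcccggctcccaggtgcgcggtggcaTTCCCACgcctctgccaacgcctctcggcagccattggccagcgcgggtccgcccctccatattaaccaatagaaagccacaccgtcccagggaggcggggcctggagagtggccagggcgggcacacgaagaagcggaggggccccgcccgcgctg
The match begins 207 bases before the start and is a description of these letters, not a measured binding site.

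Among the mural identity genes the estimates went both ways. None of 23 tested was called by edgeR, with 3 higher and 3 lower at an unadjusted p under 0.05. Steap4, a metalloreductase that marks pericytes in several tissues, stood at 175 and 153 CPM in WT and at 217, 337 and 330 in mutant pups (log2 0.83 ± 0.20, edgeR adjusted p = 0.26). Foxs1, a forkhead factor of mural cells, stood at 44.3 and 41.1 against 30.1, 26.7 and 22.3. The list's median of -0.06 has no stable direction, since it was 0.27 without WT pup 1, -0.24 without WT pup 2, 0.01 without mutant pup 3 and 0.21 in double-marker cells. Steap4 was there 303 and 224 in WT against 390, 622 and 799 in mutant pups. Of the genes that chose the cells, which are not on this list, Rgs5 stood at 6469 and 3822 in the WT gate and at 5292, 7223 and 7016 in the mutant gate, and Abcc9 at 317 and 220 against 290, 469 and 435. Both overlapped between genotypes.

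**Figure D5:**
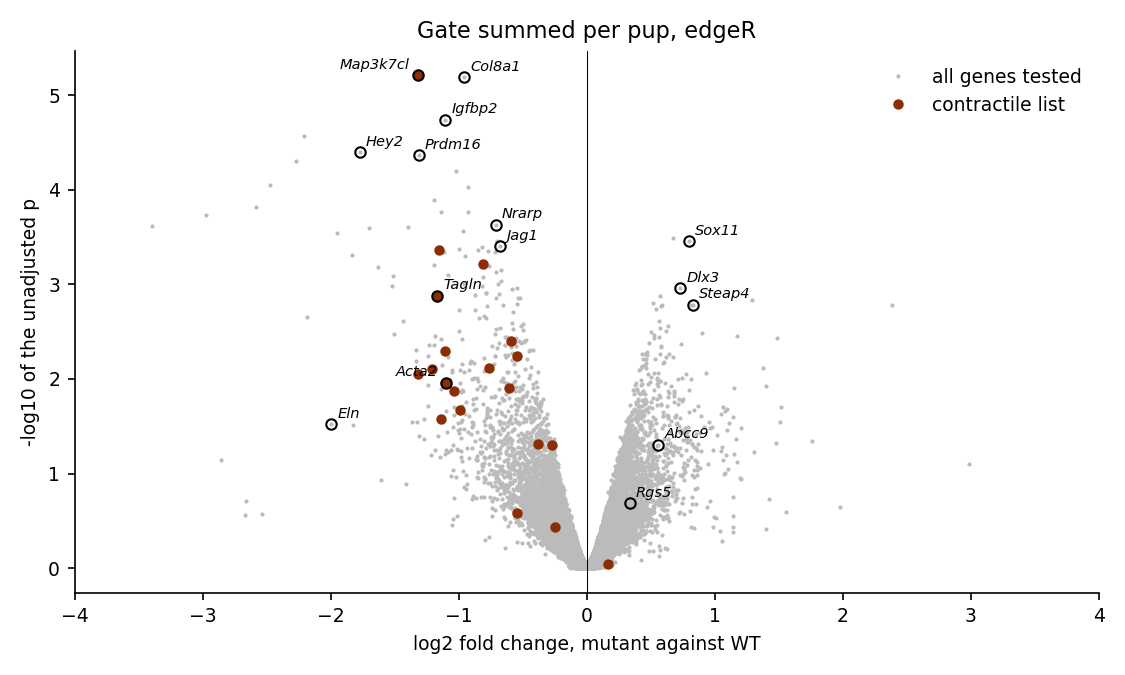
Log2 fold change of mutant against WT (horizontal axis) and -log10 of the unadjusted p (vertical axis) of each gene tested in the gate (edgeR), with the contractile list in brown and genes named in the text circled. The contractile genes lay mostly to the left, with Map3k7cl and Col8a1 at the top, and 2 genes beyond 4 on the horizontal axis are not drawn.

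Genes of vascular tone had mixed values as well. Of 23 tested none was called, and 6 were lower and 1 higher at an unadjusted p under 0.05. Without overlap, 9 were below and 2 above, against 13.3% and 12.5% of all genes tested. P2rx1, an ATP-gated channel of arterial smooth muscle, stood at 71.7 and 84.8 CPM in WT and at 26.6, 24.1 and 4.78 in mutant pups. Kcnmb1, the smooth muscle subunit of the large-conductance potassium channel, stood at 11.7 and 20.2 against 1.59 to 4.98. The gates of mutant pups 4 and 5 held 1163138 and 627721 UMIs, so levels of a few CPM there rest on very few UMIs. Avpr1a, a vasopressin receptor, stood at 191 and 166 against 120, 124 and 70.1. Adra2a went the other way at 133 and 72.0 against 135, 175 and 221, with groups that just failed to overlap. Trpv4 itself was sparse in the gate, with a UMI in 3.93% to 9.84% of members, and stood at 14.6 and 8.68 against 5.46, 14.6 and 11.2 CPM, whereas all cells outside the gate held 92.7 to 176.

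The matrix of the vessel wall was described next. Eln, which encodes the elastin of arterial laminae, stood at 7398 and 7913 CPM in WT and at 2832, 2083 and 804 in mutant pups. The groups were far apart, but the mutant pups differed widely among themselves, and the log2 fold change of -2.00 ± 0.59 was not called (edgeR adjusted p = 0.61). In double-marker cells Eln was 9125 and 11385 against 4509, 3705 and 1361. Of 20 fibrillar matrix genes tested, 10 had lower and 10 higher estimates. Col6a1, a chain of the microfibrillar collagen VI, stood at 2535 and 2138 in WT and at 2559, 3057 and 3347 in mutant pups (edgeR adjusted p = 0.62). Of 21 basement membrane genes 16 had lower estimates, with a median of -0.10 and none called. Sparcl1 stood at 1476 and 1523 against 1321, 1148 and 988, while Col4a1 overlapped. Of 24 genes for ligands and receptors of vessel assembly none was called. Pdgfb stood at 11.7 and 14.1 against 7.59, 8.60 and 3.19, the last of which rests on very few UMIs.

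In the remaining lists no gene was called by edgeR in this comparison. Cell cycle genes had lower estimates in 17 of 19, with a median of -0.34, which was -0.18 without WT pup 2 and -0.76 with the Xist-rich pups as a covariate. In 7 of the 19 all mutant pups were below both WT pups, against 13.3% of all genes tested, and 4 had an unadjusted p under 0.05. Top2a stood at 318 and 375 CPM in WT and at 245, 221 and 183 in mutant pups, and the estimates were -0.23 in double-marker cells and -0.74 in cells with Rgs5 alone. Immediate early genes, which tissue dissociation induces, had a median of -0.11, and of 0.07 without WT pup 2, with Fos at 3718 and 4110 against 2989, 2482 and 4403. In the BMP and TGF-beta list Bmp2 stood at 161 and 145 against 195, 195 and 296, and the median was 0.02, with -0.06 without WT pup 1 and 0.15 without WT pup 2. In the calcineurin and NFAT list, named for a calcium-dependent phosphatase and its targets, the median was 0.10 (0.06 to 0.17 with each pup left out), and its feedback gene Rcan1 overlapped between groups. The marrow stroma list had a median of 0.15, and of 0.06 without WT pup 1 and 0.05 without mutant pup 3. Sox11, Dlx3, Ackr3 and Prdm1 were among the higher estimates with the lowest p. Dlx3 and Ackr3 were carried by the cells with Rgs5 alone, at 295 and 1476 CPM on average there and at 6.36 and 88.1 in double-marker cells. Among lower estimates Igfbp2, a binder of insulin-like growth factors, stood at 94.4 and 82.0 against 37.9, 42.1 and 46.2, Prdm16 at 48.4 and 51.2 against 23.7, 16.3 and 14.3, and Sfrp4 at 33.2 and 44.5 against 8.99, 3.44 and 15.9.

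No gene on the lists for other cell types was called. The 10 perichondrial genes together stood highest of these lists, at 24235 to 30348 CPM in the gate. They stood at 7011 to 10591 in leukocytes and at 36776 to 58578 in all cells outside the gate. The 6 tendon genes together stood at 710 to 1221 in the gate. The 10 skeletal muscle genes stood at 31.5 and 53.7 in WT and at 41.5, 27.5 and 116 in mutant pups. No gene of the myeloid or Schwann lists had enough counts to be tested, and the 10 myeloid genes together stood at 4.78 to 7.83 CPM. The 10 endothelial genes together were 263 and 211 in WT and 233, 288 and 325 in mutant pups. The 12 chondrocyte genes together stood at 2878 and 2243 against 1937, 2011 and 3028, and at 81885 to 125415 in cells outside the gate, a gap that the rule's limit on Col2a1, a gene of the list, fixes in part. Their median log2 fold change was -0.37, but leaving out WT pup 1 gave -0.16, mutant pup 3 gave -0.04 and mutant pup 5 gave -0.65, and it was 0.17 with the Xist-rich pups as a covariate. The 6 erythroid genes were 24.5 in WT pup 1 and 335 to 1646 in the other pups, with no order by genotype. The part of these markers in the differences above was not tested.

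The remaining question was whether the difference between genotypes in the gate was also present in perichondrial cells, 14570 cells of the fibrous layer around the growth plate chosen by Postn and Prrx1. Across 12760 genes, with the pup as a block, 8 differed in their mutant effect, 0.0627% of those tested, and all 8 were lower in the gate: Col8a1, Myl9, Ppp2r2c, Acta2, Pi15, Ltbp1, Net1 and Prss12. Col8a1 was 274 and 290 CPM in WT and 146, 144 and 147 in mutant gates, whereas perichondrial cells held 278 and 318 in WT and 427, 408 and 403 in mutant pups (difference of log2 fold changes -1.53 ± 0.12, edgeR adjusted p = 9.93e-05). The gene thus stood lower in 1 class and higher in the other in all 3 mutant pups. Within the gate, however, cells with Rgs5 alone had a higher estimate for Col8a1 in the mutant. Myl9 was 32.2 and 34.4 in WT perichondrial cells and 40.3, 31.2 and 23.6 in mutant ones, and its difference was -1.28 ± 0.15 (edgeR adjusted p = 0.00765). Acta2 was 45.6 and 44.6 against 54.0, 47.2 and 34.3 there (difference -1.24 ± 0.16, edgeR adjusted p = 0.023). Ltbp1, which tethers latent TGF-beta to matrix, was 92.1 and 119 against 68.5, 49.9 and 54.2 in the gate and 137 and 186 against 178, 146 and 178 in perichondrial cells (difference -0.98 ± 0.15, edgeR adjusted p = 0.0497). Ppp2r2c had the largest difference of the 8 (-3.45 ± 0.43, edgeR adjusted p = 0.011), from a perichondrial level of 0.277 to 3.72 that leaves its fold there imprecise. Of 20 contractile genes 18 had a lower difference, with a median of -0.94 against -0.02 over all genes tested, and 2 were called. The 2 with a higher difference were Sncg and Myh11 (0.78 ± 0.47), whose perichondrial level of 0.110 to 2.65 CPM leaves the fold there imprecise. Without the block only Col8a1 was called, and 3 genes were called without WT pup 1 and 14 without mutant pup 3. Col8a1 was called with each pup left out. Net1 was called in none of those fits, Ltbp1 only without mutant pup 3 and Prss12 only without mutant pup 4.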

How the data were processed

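UMI counts for each gene in each cell, as the authors deposited them, came as 1 sparse matrix per pup, made on a BD Rhapsody system with the vendor pipeline against mm10. Its version is not given in the sources used here. The matrices held 84382 cells and 29818 genes, with 117746735 to 183322632 UMIs per pup. Cells with 200 to 6000 genes and at most 10% mitochondrial UMIs were kept. Intervals and limits of 0 cover counting error only.

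Counts were summed per pup over the gate and tested with edgeR 4.0.16 (quasi-likelihood, TMM, low-count filter, Benjamini-Hochberg) in R 4.3.3, with DESeq2 1.42.0 as an alternative. Single values used the exact 2-sided permutation test over pups. The difference from perichondrial cells (at least 5 Postn UMIs and 1 Prrx1 UMI) was an interaction with the pup as block. Its pairing comes from the animal, and the deviations of both classes of a pup correlated at 0.184 to 0.310. On simulated counts for 10557 genes of mutant against WT, edgeR recovered 161 of 200 genes changed 2-fold, with 24 false calls. Of 200 genes changed 4-fold it recovered 199, with 19 false calls. In both runs false calls were a larger part of the calls than the threshold of 0.05 allows. The simulated recovery may not hold for the measured counts. In the gate Tagln, Myl9 and Acta2 had log2 fold changes of -1.17, -1.21 and -1.10. None was called (edgeR adjusted p = 0.25, 0.47 and 0.53), whereas Map3k7cl at -1.32 was. P-values measure the spread between 2 WT and 3 mutant littermates.

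The members, the 20 gene lists and the subsets were chosen with earlier results of these data known. Genes were named by rule: the 5 rule genes, Trpv4, Rcan1, Xist and Ddx3y, the 6 highest genes of each list, every called gene, the 5 lowest unadjusted p in each direction above 20 CPM, 3 in each direction for the interaction, and the 15 highest ratios against all other cells above 100 CPM. All other genes named, and the division of the gate, were chosen after their values were seen. Gene positions and promoters came from GRCm38 annotation, the latter from RefSeq. Python 3.11.15 was used for all else. 1 gene that the rule names is not reported here.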

Additional observations from a re-analysis of the deposited data

Results flagged for a closer look

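Genotype had a different effect in the gate than in perichondrial cells for 8 genes, each tested as an interaction with the pup as block (edgeR, adjusted p under the threshold, 5 pups). The difference of the log2 fold changes was -1.53 for Col8a1, -1.28 for Myl9, -3.45 for Ppp2r2c and -1.24 for Acta2. It was -1.53 for Pi15, -0.98 for Ltbp1, -0.95 for Net1 and -2.87 for Prss12. Only Col8a1 was also called without the block and with each pup left out, and the call of Net1 was lost whichever pup was left out. Pi15, a secreted protein of unclear role, stood at 188 and 342 CPM in the WT gate and at 173, 106 and 134 in the mutant gate, against 19.3 and 40.7 and then 42.3, 32.5 and 53.0 in perichondrial cells. Net1 stood at 70.5 and 62.5 in the WT gate and at 35.1, 33.5 and 51.0 in the mutant gate, against 85.5 and 86.4 and then 89.6, 79.3 and 105 in perichondrial cells. Prss12 stood at 1.38 to 11.7 in perichondrial cells and, as scaled in the fit, at a mean of 6.22 in the gate. The gate held 627721 to 6447947 UMIs per pup and perichondrial cells 9126571 to 33059584. At such levels the gate rests on few UMIs, and the fold change of Prss12 there is imprecise.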

How the results depend on the processing

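The 2 genes called between genotypes were also called with RLE size factors, and the count was 11 with DESeq2, 171 without a filter on low counts, 10 with a marker sum of at least 10, 14 with the sum taken per 10,000 UMIs and 0 with a sum of at least 3 (726 at an unadjusted p under 0.05). It was 43 with the Xist-rich pups as a covariate and 64 without them, both of which test mutant pup 5 alone, and 0 to 19 with each pup left out in turn. Where 1 sample of a group was left, it was assumed to vary like the other group. Among alternatives chosen after seeing the data, edgeR called 0 genes in double-marker cells (536 at an unadjusted p under 0.05), in cells with Rgs5 alone (235) and in cells without Rgs5 (90). Double-marker cells with and without Myh11 also gave 0 calls (435 and 231 at an unadjusted p under 0.05), but they were chosen by a gene whose detection differed between genotypes, and nothing is read from these fits. Col8a1 turned to a log2 fold change of 0.38 in cells with Rgs5 alone. For the difference from perichondrial cells, the fit with no replicate block, that is without the pairing by pup, called 1 gene, the fit without a filter called 149, and leaving out each pup gave 3 to 14. WT and mutant pups share no replicate numbers, so the comparison of genotypes has no paired fit.

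With each pup left out, the difference in the share of cells ran from -2.37 to 0.317 percentage points, the contractile level from -7.89 to -2.03, the Myh11 share from -18.2 to -11.7, the double-marker share of the gate from -10.1 to -3.40, that of cells with Rgs5 alone from 8.27 to 11.9 and that of cells without Rgs5 from -5.54 to -0.776. The contractile level differed by -1.50 with a sum of at least 3, -8.15 with at least 10, -7.06 with a mitochondrial limit of 20%, -37.3 as a sum over cells, -70.3 in double-marker cells and 0 in cells with Rgs5 alone. In cells with Rgs5 alone the median was 0 in every pup, so this value carries no information. The Myh11 share differed by -10.7 in double-marker cells and -0.423 in cells with Rgs5 alone. In cells without Rgs5, with 9 to 97 cells per pup, the groups overlapped in both measures. Of the single-gene estimates 427 changed sign where neither value was called. The cause of these changes was not tested. With 97 members in mutant pup 5, low-count genes were measured poorly.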

Other observations

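Double-marker cells without Myh11 differed from those with it in more than the contractile genes, as a description of the division. The 10 perichondrial genes together stood at 24325 to 61153 CPM, against 8582 to 21457 in cells with Myh11. The 20 fibrillar matrix genes stood at 50496 to 107470 against 26174 to 47042. Pdgfra had a UMI in 35.2% against 9.52%, and Clic5 in 7.04% against 0.180%. Arhgdib stood above the other portions of the gate in all 5 pups, Cygb, a globin of stellate and perivascular cells, in 3, and Sele and Ibsp in 1. Steap4 stood at 406 to 937 CPM against 152 to 790 in cells with Myh11, with overlapping ranges. The 6 erythroid genes together stood at 32.0 CPM in WT pup 1 and 34.7 in mutant pup 3 of this portion, and at 4796 to 9928 in the other 3 pups.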
